A study of Homo sapiens with 6 samples.

Results

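The genes described here are 9 interferon-induced restriction factors, MX1, MX2, RSAD2, CMPK2, IFITM1, IFITM2, IFITM3, BST2 and ISG20, taken by symbol from a table of 29710 genes. All 9 had a row in the table and all 9 passed the filter on low counts. They were put together because their products restrict viral entry, replication or release, and they were chosen by name with the read counts and fold changes of the comparison below already known, so the same values count as used in the choice. Their values are therefore given as a description of these libraries, and the p-values beside them are those of a fit over all genes. The libraries came from MDA-MB-231 cells, a human triple-negative breast cancer line, sequenced as strand-specific paired-end RNA. One group carried an empty vector (NC, 3 biological replicates) and the other overexpressed SRPK2-FLAG (OE, 3 biological replicates). SRPK2 is a kinase of splicing factors rich in serine and arginine, FLAG is an epitope tag, and the comparison addresses how transcript levels differ with more SRPK2. The labels name no treatment with interferon or virus, and do not say whether the cells were clones or pools.

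Type I and type III interferons act through receptors and Janus kinases on transcription factors that bind the interferon-stimulated response element (ISRE) in promoters of antiviral genes. The products of these genes act at different steps of infection. IFITM proteins sit in the plasma and endosomal membranes and hinder the fusion of enveloped viruses, MX proteins are dynamin-like GTPases that act on incoming viral nucleoproteins and capsids, and viperin (the product of RSAD2) makes a chain-terminating nucleotide from CTP. CMPK2 is a mitochondrial nucleotide kinase encoded beside RSAD2, ISG20 is an exonuclease, and BST2 (tetherin) holds budding virions at the cell surface. Many tumour cell lines hold some of these genes at a steady level without added interferon.

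The promoter sequences are shown because they carry the response element through which the family is known to be induced, so they can be set beside the values that follow. RefSeq promoters (GRCh38.p14, 300 bases each, from 250 bases before to 50 after a start site) were found for 7 of the 9 genes, in 12 windows. The promoter set used here held no window for MX2 or IFITM2. The ISRE core was searched on both strands as the letters GAAA, any 2 bases and again GAAA, or the reverse complement TTTC, any 2 bases and TTTC, and 6 of the 7 genes held at least 1 exact match, while 4.38% of the 27305 genes in the promoter set did (3.57% of 35116 windows). Each line below gives 30 bases of the gene's own strand, 5′ to 3′, with the motif in capitals.
MX1, start 1, chr21:41420557-41420586: gcgagcaGAAATGAAACCGAAActgaattg
MX1, start 3, chr21:41431844-41431873: ggtcactctgTTTCTCTTTCcgtgaataaa
RSAD2, start 2, chr2:6877622-6877651: ctgtttcaacTTTCAGTTTCacatgtggaa
IFITM1, chr11:314024-314053: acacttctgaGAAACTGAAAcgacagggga
IFITM3, chr11:320884-320913: gGAAAAGGAAActgttgaGAAACCGAAAct
BST2, chr19:17405738-17405767: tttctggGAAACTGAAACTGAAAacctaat
ISG20, chr15:88638937-88638966: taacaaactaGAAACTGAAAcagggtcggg

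Counted from the start site, with +1 as its first base, the matches began at position 12 for MX1 start 1, -196 for MX1 start 3, -145 for RSAD2, -69 for ISG20, and -130 and -124 for the overlapping pair of BST2. IFITM1 held matches at -40 and -6 and IFITM3 at -52 and -35. GENCODE 29 places the MX1, IFITM1, IFITM3 and ISG20 windows in untranslated exons of each gene (those of IFITM1 also in an intron of IFITM2), the RSAD2 window in an intron of RSAD2, and the BST2 window in an exon of BISPR and an untranslated exon of MVB12A, which start on the other strand. In the first MX1 line the capitals also cover an overlapping match to GAAANGAAA. The gamma-activated site TTCNNNGAA, the same on both strands, was present in windows of MX1, IFITM1 and BST2, and in 9.38% of all genes of the set. In the BST2 and IFITM1 windows, and at MX1 start 3, one of its matches overlapped an ISRE match.

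CMPK2 was the gene without an exact ISRE match in its 3 windows. After the sequences had been seen, a tighter pair of the same blocks was searched, GAAANGAAA or TTTCNTTTC, which occurs in 3.87% of all genes of the set. RSAD2 held 4 such sites at its first start and CMPK2 held 2. Both CMPK2 sites were among those of RSAD2, since the genes point away from each other and these promoter windows overlap. The first line below shows one of the shared sites on the RSAD2 strand, the other the same site on the CMPK2 strand.
RSAD2, start 1, chr2:6865815-6865844: gcgttgcgggGAAACGAAAgccggaggccc
CMPK2, start 3, chr2:6865814-6865843: ggcctccggcTTTCGTTTCcccgcaacgct
MX1 also held this motif, at its first and second starts. A match is a stretch of letters and not a measured binding site.

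The libraries held between 31140537 and 36908878 reads assigned to genes. SRPK2 itself was at 37.8, 36.7 and 41.1 CPM (read counts scaled to library size by the TMM method) in the controls and higher in each OE library, 213 to 294 CPM (log2 fold change 2.71, SE 0.10, adjusted p = 2.94e-08 in edgeR). Over 16515 tested genes 63 rose and 12 fell at a Benjamini-Hochberg adjusted p under 0.05 (edgeR quasi-likelihood test), and the median log2 fold change of all tested genes was 0.00. Without OE replicate 2 the test called 551 genes higher and 852 lower, so counts of calls that moved are also given without that library. VIM, CD44, AXL, CAV1, KRT18 and EGFR, genes known to be expressed in MDA-MB-231, summed to between 6680 and 7134 CPM in every library, while of a list of 6 luminal genes ESR1, PGR and FOXA1 stood at 0.114 CPM or less and ERBB2, EPCAM and GATA3 at 13.1 to 52.1 CPM. The luminal list summed to 76.5 to 77.2 CPM in the controls and 79.9 to 82.2 CPM in the OE libraries, without overlap. Of its 6 genes ERBB2 alone did not overlap (46.2 to 48.3 CPM in the controls, 50.7 to 52.1 CPM in the OE libraries). Of all tested genes 20.1% did not overlap in CPM. The part of the luminal list in the results was not tested. Because BST2 and ISG20 are also genes of blood cells, immune markers were checked. MS4A1, CD3E, IL3RA, LILRA4 and CLEC4C had no row in the count table, PTPRC and CD79A stayed at or under 0.277 CPM, and CD14 lay between 5.14 and 6.12 CPM. The summed immune markers were 5.80 to 6.37 CPM in the controls and 5.46 to 6.26 CPM in the OE libraries.

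In the authors' FPKM values (fragments scaled to a gene length and library size) the 9 genes covered a wide range in the control cells. BST2 was highest at 106 ± 8.37 (SD, n = 3) and IFITM3 next at 81.4 ± 3.02 (SD, n = 3), above 98.0% and 97.2% of the tested genes. IFITM2 followed at 24.3 ± 1.12 and IFITM1 at 5.30 ± 0.13 FPKM (SD, n = 3 each). RSAD2 at 2.35 ± 0.15 and ISG20 at 2.14 ± 0.17 FPKM (SD, n = 3 each) were neighbours in this order whose control libraries overlapped, so their order is not resolved. MX1 lay at 1.42 ± 0.13, CMPK2 at 0.520 ± 0.085 and MX2 at 0.337 ± 0.038 FPKM (SD, n = 3 each), and MX2 was above only 15.8% of the tested genes. Each other pair of neighbours in the order did not overlap between control libraries. In these FPKM values BST2, IFITM3 and IFITM2 were thus the abundant ones and MX1, CMPK2 and MX2 the scarce ones. IFITM1, whose product also acts at membranes, lay between them. In the OE libraries the order of the means was the same, from 107 ± 4.76 FPKM for BST2 to 0.473 ± 0.029 FPKM for MX2 (SD, n = 3 each), and there RSAD2 at 3.59 ± 0.37 FPKM did not overlap with ISG20 at 2.58 ± 0.17 FPKM (SD, n = 3 each). IFITM3 alone made up 48.5% to 51.3% of the reads of the 9 genes in a library, and BST2 23.2% to 27.2%.

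**Figure D1:**
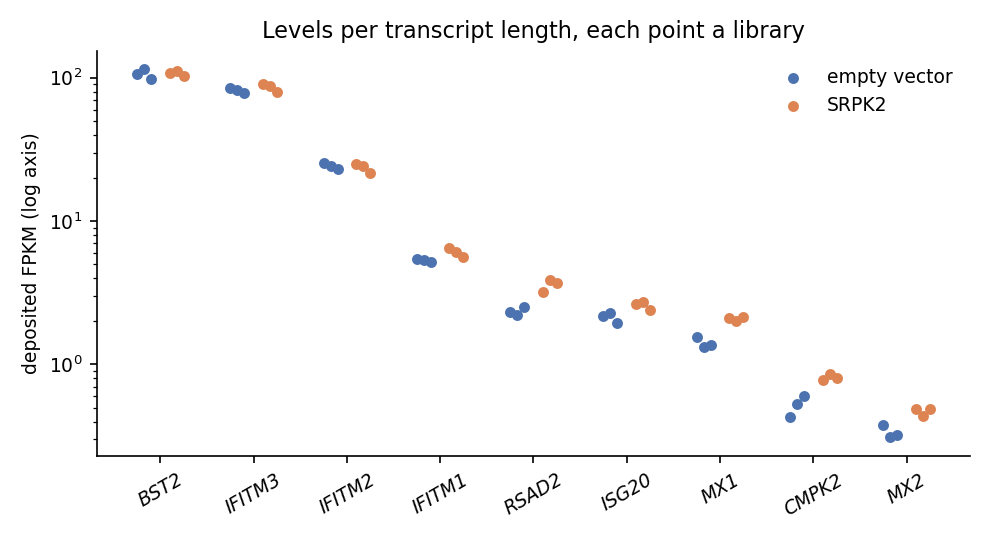
Deposited FPKM (log axis) of the 9 genes in each of the 6 libraries, empty vector in blue and SRPK2 in orange, ordered by the control mean. The control means run from 106 for BST2 to 0.337 for MX2, and the orange points stand above the blue ones most clearly for RSAD2, MX1, CMPK2 and MX2.

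In the comparison of OE with NC libraries, MX1 and RSAD2 rose and no member fell in the edgeR test at an adjusted p under 0.05. These were 2 of the 9 genes, where 0.454% of all tested genes were called, 0.381% higher and 0.0727% lower. No member was called at 2-fold or more, as 0.0363% of all tested genes were. At an unadjusted p under 0.05 edgeR gave 5 members higher and 0 lower, where 17.2% of all tested genes passed in either direction. DESeq2 and limma-voom each called 2 members higher and 0 lower at their adjusted p. Of the genes given an adjusted p, DESeq2 called 0.584% of 14732 higher and limma-voom 0.357% of 16515. The log2 fold change was positive for 7 of the 9 members, and for 51.2% of all tested genes. The members' median was 0.23. Without OE replicate 2 the members called higher were 4, MX1, MX2, RSAD2 and CMPK2, where 3.29% of the genes tested were called higher. In CPM the OE libraries lay wholly above the controls for 4 members (MX1, MX2, RSAD2 and CMPK2) and below them for 0, where 20.1% of all tested genes did not overlap, 11.5% above and 8.69% below. In the deposited FPKM values 6 members lay wholly above, with IFITM1 and ISG20 added, where 13.4% of the tested genes did. Gene totals from bulk RNA cannot tell more cells that express a gene from more RNA per cell.

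**Figure D2:**
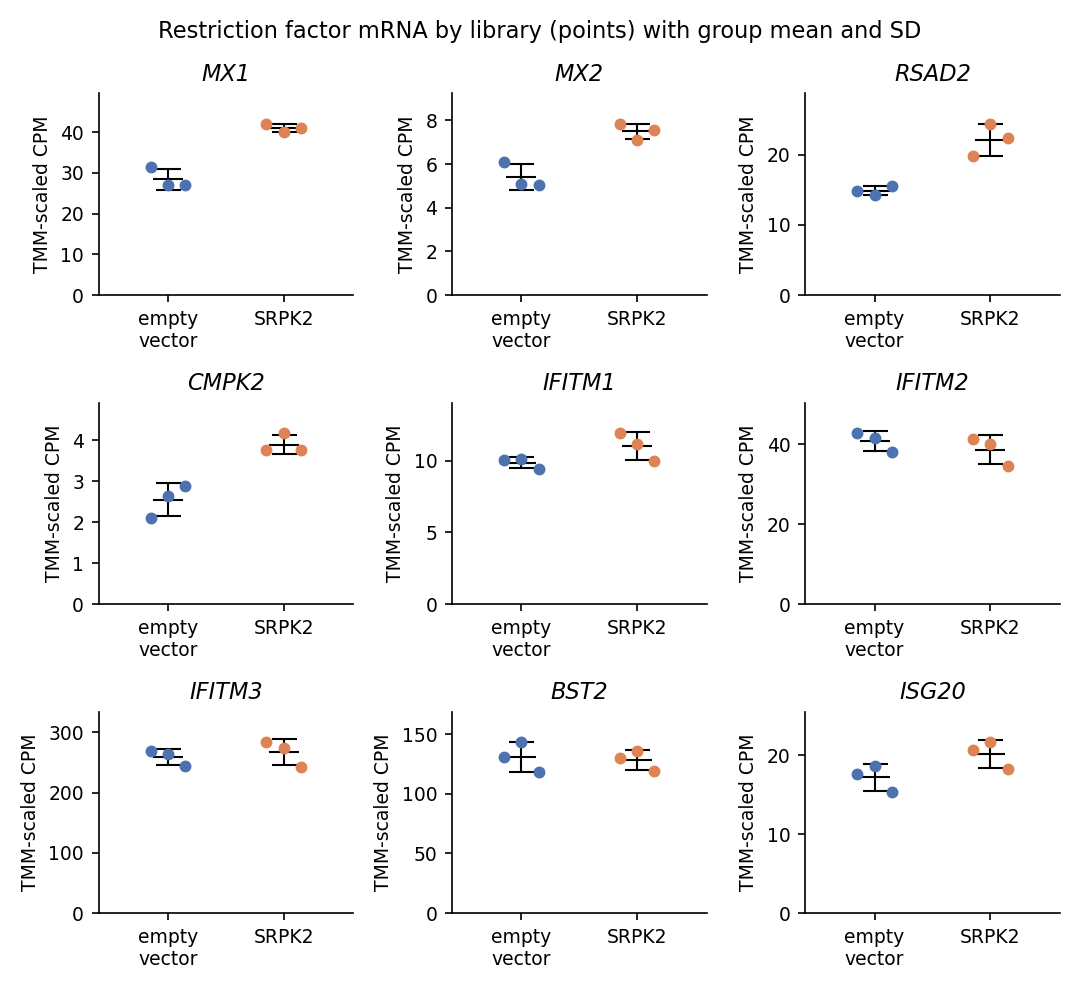
TMM-scaled CPM of each gene (vertical axis from 0, one panel per gene) in the 3 empty-vector libraries (blue) and the 3 SRPK2 libraries (orange), with the group mean and SD as bars. The groups separate for MX1, MX2, RSAD2 and CMPK2, and overlap for IFITM1, IFITM2, IFITM3, BST2 and ISG20.

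The MX genes lie next to each other on the plus strand of chromosome 21, MX2 (ENSG00000183486.14) from 41361943 to 41409390 and MX1 (ENSG00000157601.15) from 41420304 to 41459214 (GRCh38, GENCODE 29). MX1, the cytoplasmic protein active against influenza and related viruses, was at 31.5, 27.0 and 27.0 CPM in control replicates 1, 2 and 3 and at 42.0, 40.0 and 40.9 CPM in OE replicates 1, 2 and 3. The OE libraries were close together and all above the highest control, replicate 1. MX1 rose 1.44-fold (log2 fold change 0.52, SE 0.07, edgeR adjusted p = 0.00357). Leaving out each of the 6 libraries in turn gave log2 fold changes between 0.48 and 0.60, all past the threshold. MX2, the nuclear envelope protein active against HIV, was at 6.12, 5.08 and 5.03 CPM in the controls and at 7.82, 7.12 and 7.54 CPM in the OE libraries, again with control replicate 1 the highest control and no overlap. Its log2 fold change of 0.47 (SE 0.10) was close to that of MX1, but it missed the threshold with an edgeR adjusted p of 0.0766. Between 165 and 289 reads per library lay behind MX2, against 875 to 1569 for MX1. Without OE replicate 2 MX2 passed (log2 fold change 0.50, edgeR adjusted p = 0.0200), as it did with libraries scaled by size alone (0.51, adjusted p = 0.0411).

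The pair kept nearly the same proportion in each library. MX1 had 5.15, 5.30 and 5.37 reads for each MX2 read in the controls, and 5.36, 5.62 and 5.43 in the OE libraries, groups that overlapped. The means of this ratio were 5.27 ± 0.11 and 5.47 ± 0.13 (SD, n = 3 each). A ratio within a library does not depend on how libraries are scaled. Among the 12650 tested genes whose mean log2 CPM was 1 or more, MX2 was the gene whose pattern over the 6 libraries was most like that of MX1. Likeness was measured as the root mean square difference of log2 CPM after centring each gene on its mean, and it was 0.038 for MX2, 0.055 for XAF1 and 0.056 for PLCG2, the next genes, with a median of 0.28 over all genes. These likenesses include the difference between the groups, and those libraries are what the genes share. The transcripts of MX1 and MX2 have little sequence in common, as 0.213% of the distinct stretches of 50 bases in GENCODE 29 transcripts of MX1 also occur in MX2.

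RSAD2 and CMPK2 lie head to head on chromosome 2, CMPK2 (ENSG00000134326.12) at 6840570 to 6866635 (minus strand) and RSAD2 (ENSG00000134321.13) at 6865806 to 6898239 (plus strand; GENCODE 29, GRCh38). Viperin converts CTP to ddhCTP, and CMPK2 phosphorylates CMP and UMP towards the triphosphates. RSAD2 was at 14.8, 14.2 and 15.5 CPM in the controls and at 19.8, 24.3 and 22.3 CPM in the OE libraries, where replicate 1 was the lowest and still above each control. RSAD2 rose 1.49-fold (log2 fold change 0.58, SE 0.08, edgeR adjusted p = 0.00450), but not without control replicate 1, where its edgeR adjusted p was 0.0604 at a log2 fold change of 0.57. CMPK2 was at 2.11, 2.65 and 2.90 CPM in the controls and at 3.77, 4.17 and 3.76 CPM in the OE libraries, with no overlap. Its log2 fold change was numerically the highest of the 9 genes, 0.61 (SE 0.14), and it missed the threshold with an edgeR adjusted p of 0.0919. The counts of CMPK2 were low, 74 to 146 reads per library, so that the 95% Poisson interval of its summed control reads spans 235 to 300 around 266. Intervals of this kind cover counting error only. Without OE replicate 2 CMPK2 passed (0.56, edgeR adjusted p = 0.0392), as it did with libraries scaled by size alone (0.65, adjusted p = 0.0495).

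RSAD2 had 7.01, 5.37 and 5.36 reads for each CMPK2 read in the controls and 5.25, 5.82 and 5.94 in the OE libraries. The groups overlapped, and control replicate 1, with the fewest CMPK2 reads of the 6 libraries, stood apart from the rest. The genes most like RSAD2 over the 6 libraries were TNFSF15, CXCL11 and DEPP1, with root mean square differences of 0.076, 0.077 and 0.085 against a median of 0.31 over all genes, while CMPK2 ranked 49 of 12650 at 0.14. The exons of RSAD2 and CMPK2 overlap on opposite strands at their starts, and how the counting used strand is not given in the sources used here. Reads from that stretch could therefore be credited to either gene. The lncRNA NRIR, which lies 106 bases past the end of CMPK2 on the same strand, had 0 to 4 reads per library and did not enter the test.

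**Figure D3:**
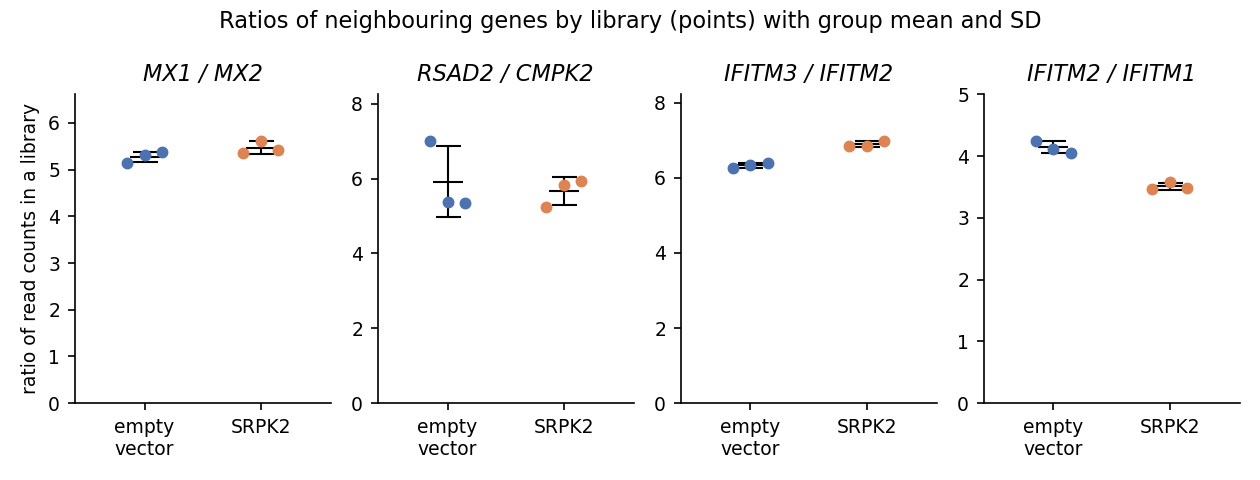
Ratio of read counts of 2 neighbouring genes within each library (vertical axes from 0), for empty-vector (blue) and SRPK2 (orange) libraries, with the group mean and SD as bars. MX1 over MX2 and RSAD2 over CMPK2 overlap between groups, while IFITM3 over IFITM2 is higher and IFITM2 over IFITM1 lower in each SRPK2 library.

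The IFITM genes form a cluster near the end of chromosome 11, IFITM2 (ENSG00000185201.17) from 307631 to 315272 and IFITM1 (ENSG00000185885.17) from 313506 to 315272 on the plus strand, and IFITM3 (ENSG00000142089.17) at 319669 to 327537 on the minus strand (GENCODE 29, GRCh38). None of the 3 passed the threshold, and their values in CPM overlapped between the groups. IFITM3, which acts mainly in endosomes, was at 268, 264 and 244 CPM in the controls and at 283, 274 and 242 CPM in the OE libraries, so that OE replicate 3 was the lowest of all 6. Its log2 fold change was 0.04 (95% interval -0.10 to 0.19, edgeR adjusted p = 0.750), and its sign turned, to -0.01, without OE replicate 1. IFITM2, its close relative in endosomes, was at 42.8, 41.6 and 38.1 CPM in the controls and at 41.4, 40.0 and 34.7 CPM in the OE libraries. Its log2 fold change was -0.08 (95% interval -0.23 to 0.08, edgeR adjusted p = 0.579). Leaving out 1 library gave values from -0.13 (without OE replicate 1) to -0.0077 (without OE replicate 3), and the sign turned, to 0.01, once gene length was corrected for. IFITM1, found mainly at the cell surface, was at 10.1, 10.1 and 9.40 CPM in the controls and at 11.9, 11.2 and 9.97 CPM in the OE libraries, of which replicates 1 and 2 were above each control and replicate 3 was not. The log2 fold change of IFITM1 was 0.16 (95% interval -0.03 to 0.34, edgeR adjusted p = 0.349), with 0.10 without OE replicate 1 and 0.22 without OE replicate 3, and 0.24 once gene length was corrected for. In each group replicate 3 had the lowest CPM of all 3 genes.

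Within a library the proportions of the IFITM genes differed between the groups without overlap. IFITM3 had 6.27, 6.34 and 6.38 reads for each IFITM2 read in the controls and 6.85, 6.85 and 6.99 in the OE libraries, means of 6.33 ± 0.06 and 6.90 ± 0.08 (SD, n = 3 each). IFITM2 had 4.25, 4.12 and 4.06 reads for each IFITM1 read in the controls and 3.47, 3.58 and 3.48 in the OE libraries, means of 4.14 ± 0.10 and 3.51 ± 0.06 (SD, n = 3 each). IFITM3 had 26.2 ± 0.38 reads for each IFITM1 read in the controls and 24.2 ± 0.38 in the OE libraries (SD, n = 3 each). These ratios describe the reads credited to the 3 genes and do not show which of them changed. They were looked at after the values had been seen, so no test is given. How often ratios of other gene pairs separate the groups was not computed. Reads may be shared among these genes. Distinct 50-base stretches in GENCODE 29 transcripts were searched in transcripts of other genes. On the same strand 32.0% of those of IFITM1, 34.1% of those of IFITM2 and 17.4% of those of IFITM3 also occur there. This share was at most 0.314% for the other 6 genes. With either strand counted, it was 32.0% for IFITM1, 34.3% for IFITM2, 35.2% for IFITM3 and at most 1.94% for the other 6. IFITM1 and IFITM2 also overlap in exons on the same strand. How the authors' counting treated such reads is not given in the sources used here. The split of reads among the IFITM genes is uncertain.

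BST2 (ENSG00000130303.14) occupies bases 17402939 to 17405648 of chromosome 19, on the minus strand (GENCODE 29, GRCh38). It was at 131, 143 and 118 CPM in the controls and at 130, 135 and 119 CPM in the OE libraries, and the OE values lay within the range of the controls. BST2 had a log2 fold change of -0.02 (95% interval -0.18 to 0.13, edgeR adjusted p = 0.878), and it turned sign with libraries scaled by size alone, to 0.01. The interval does not reach the log2 fold change of 0.52 fitted for MX1, and a difference between the genes was not tested. BISPR, a lncRNA that starts 38 bases from BST2 on the opposite strand, was at 9.23 CPM in the controls and 8.43 CPM in the OE libraries on average (log2 fold change -0.13, SE 0.08, edgeR adjusted p = 0.388), and MVB12A, which starts 74 bases away on that strand, at 43.8 and 40.6 CPM (-0.11, SE 0.06, edgeR adjusted p = 0.343). The genes most like BST2 over the 6 libraries were HEXIM2, PMF1-BGLAP and GSTK1, with root mean square differences of 0.015, 0.020 and 0.028, and those most like IFITM3 were G6PC3, ZNF584 and MSRA, at 0.012, 0.022 and 0.025. The medians over all genes were 0.13 for BST2 and 0.12 for IFITM3. IFITM3 ranked 786 for BST2 at 0.071.

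ISG20 (ENSG00000172183.16), the exonuclease gene, occupies bases 88636153 to 88656483 of chromosome 15, on the plus strand (GENCODE 29, GRCh38). It was at 17.6, 18.7 and 15.4 CPM in the controls and at 20.8, 21.7 and 18.2 CPM in the OE libraries. The groups overlapped by a small margin, as OE replicate 3 lay between control replicates 1 and 2. The fitted log2 fold change was 0.23 (SE 0.09, edgeR adjusted p = 0.222), between those of the MX and IFITM genes. AEN, an exonuclease gene of the same family that ends 3871 bases before ISG20, was at 31.2 and 31.4 CPM on average (log2 fold change 0.01, SE 0.06, edgeR adjusted p = 0.920).

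**Figure D4:**
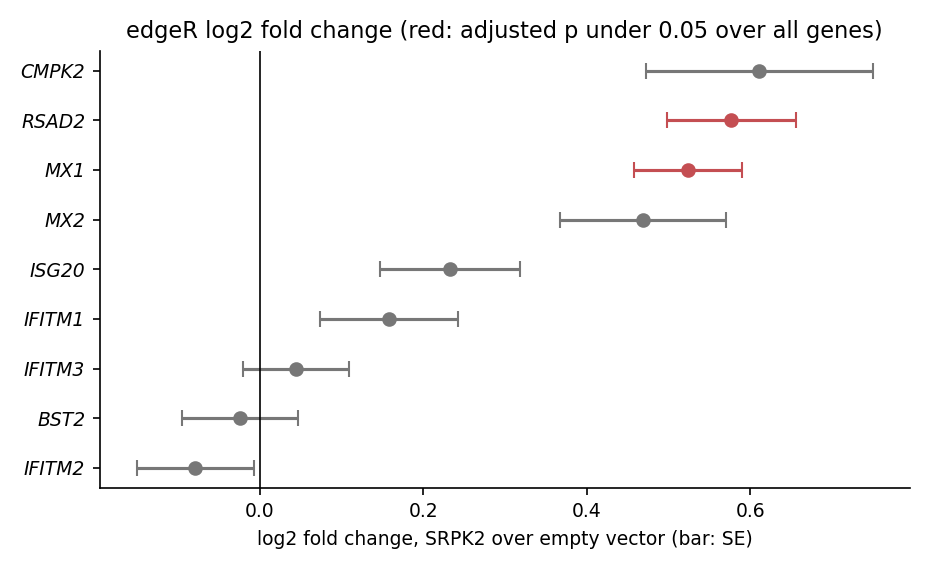
edgeR log2 fold change of each gene, SRPK2 over empty vector (horizontal axis), with its SE as a bar. MX1 and RSAD2, in red, passed an adjusted p of 0.05 over all genes, CMPK2 and MX2 lie at similar values with wider bars, and IFITM3, BST2 and IFITM2 lie near 0.

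Set beside the log2 fold changes of the 7 genes searched, the exact ISRE match was present in genes with high and with low values. MX1 and RSAD2, which rose, held it, as did ISG20 (0.23), IFITM1 (0.16), IFITM3 (0.04) and BST2 (-0.02), while CMPK2 (0.61) did not. The GAAANGAAA letters, which were searched after the sequences and values had been seen, were present in MX1, RSAD2 and CMPK2, the 3 genes of the 7 with the highest values. This describes 7 genes, of which RSAD2 and CMPK2 share 2 sites, and draws nothing about the factors that bind these letters.

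Other genes of the pathway were taken from fixed lists. Interferon ligands stood near the detection limit. Of 8 ligand genes, IFNB1, IFNA1, IFNE, IFNK and IFNG had no row in the count table, and IFNL2 and IFNL3 had 0 to 8 reads and were not tested. IFNL1, a type III interferon, had 5, 7 and 3 reads in the controls and 22, 25 and 24 in the OE libraries. Summed and scaled to library size, this was a ratio of 4.83 (95% interval 2.74 to 9.09, exact binomial, counting error only). IFNL1 passed the edgeR test (adjusted p = 0.0147), but not without control replicate 1 or 3 or OE replicate 1, and limma-voom called it while DESeq2 did not.

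Of 18 receptor, kinase, transcription factor and feedback genes 0 passed the edgeR threshold in either direction, and 0 did with DESeq2 or limma-voom. At an unadjusted p under 0.05 edgeR gave 5 higher and 0 lower, where 1496 of all 16515 tested genes were higher and 1337 lower. Of the 18 log2 fold changes 14 were positive, with a median of 0.13, where 51.2% of all tested genes were positive. The kinase JAK1 was at 95.8 CPM in the controls and 100.3 CPM in the OE libraries on average (log2 fold change 0.07, SE 0.05, edgeR adjusted p = 0.541). Without OE replicate 2 the list had 2 genes past the threshold, both higher, where 3.29% of the genes tested were called higher.

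Of 30 other interferon-induced antiviral effectors 29 were tested, and 11 rose and 0 fell in the edgeR test, with a median log2 fold change of 0.30 and 27 positive values. DESeq2 called 12 higher and limma-voom 11, with 0 lower in each, and edgeR gave 19 higher and 0 lower at an unadjusted p under 0.05. Over all tested genes 0.381% were called higher in edgeR and 51.2% had a positive log2 fold change. The unadjusted threshold was passed by 17.2% of them in either direction. The count of effectors that rose was 16 without OE replicate 2, where 3.29% of the genes tested were called higher. It was 2 for limma on log2(FPKM + 1) with no filter. The largest changes were those of the RNA-sensing synthetase gene OAS1 (0.81), the apoptosis-linked XAF1 (0.56), SAMD9 (0.50), which restricts poxviruses, and IFIT3 (0.49), of a family that binds viral RNA, with edgeR adjusted p between 0.00167 and 0.00450. The values of MX1 and RSAD2 thus fell within the range of these effectors, and those of ISG20, the IFITM genes and BST2 below their median. Like BST2, IFITM2 and IFITM3, ISG15, LY6E and TRIM25 of this list had values near 0, of 0.06, 0.03 and 0.05, and did not pass (edgeR adjusted p = 0.748, 0.860 and 0.628). These 3 were picked after their values were seen.

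Close relatives of the 9 genes that are not mainly known as interferon-induced numbered 9 among the tested genes, and their log2 fold changes had a median of 0.01. None passed the threshold in edgeR, and 0 did in DESeq2 or limma-voom. At an unadjusted p under 0.05 edgeR gave 1 higher and 1 lower, where 17.2% of all tested genes passed in either direction. Without OE replicate 2 edgeR called 1 higher at the adjusted p, where 3.29% of the genes tested were called higher. CMPK1, the cytosolic relative of CMPK2, had -0.07 (SE 0.05) and the dynamin gene DNM2 had 0.19 (SE 0.05), with edgeR adjusted p of 0.445 and 0.156. Enzymes and assembly factors that act on IFITM3 or viperin had a median of -0.04 over 7 genes, with 0 past the threshold in edgeR, DESeq2 or limma-voom and 1 lower at an unadjusted edgeR p under 0.05. Without OE replicate 2 edgeR called 1 of these 7 lower, where 852 of the 16772 genes tested were called lower. ZMPSTE24, a protease that works with IFITM proteins, had -0.04 (SE 0.05) and CIAO1, an iron-sulfur assembly factor, had -0.12 (SE 0.05), with edgeR adjusted p of 0.698 and 0.296.

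**Figure D5:**
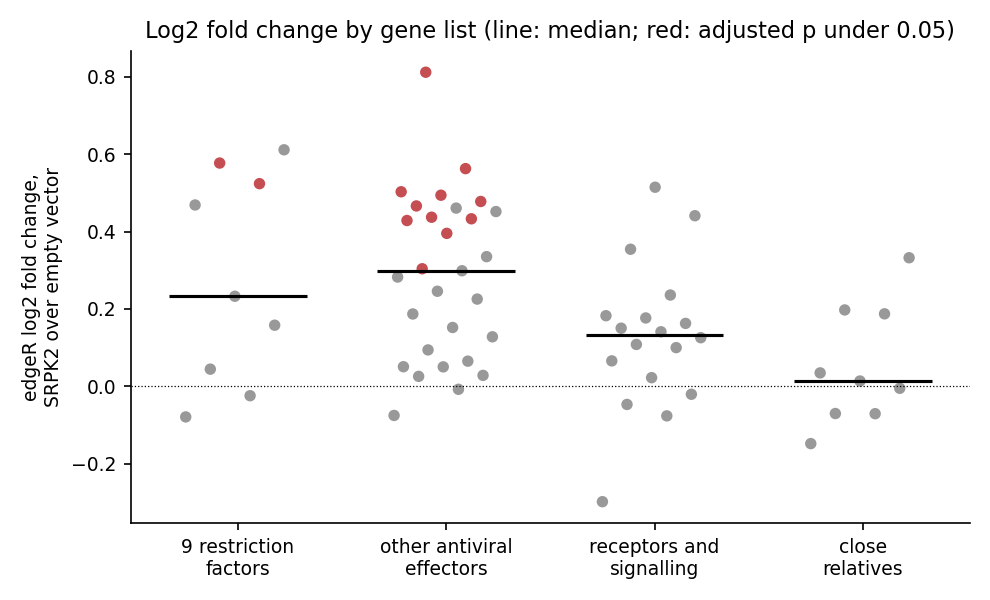
edgeR log2 fold change (vertical axis) of each tested gene in 4 lists, with the list median as a line and genes past an adjusted p of 0.05 in red. The medians are 0.23 for the 9 restriction factors, 0.30 for the other effectors, 0.13 for receptors and signalling and 0.01 for the close relatives.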

How the data were processed

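RNA sequencing data of 6 MDA-MB-231 libraries, grouped by their titles, were used. Per the submitters' processing notes the tools were HISAT2, FastQC and bcl2fastq, on GRCh38. Which program counted the reads, with which strand option and gene models, is not given in the sources used here. The authors deposited a table of raw read counts (29710 genes) and a table of FPKM values (29256 genes, rounded to 2 decimals). The test was that of edgeR 4.0.16 under R 4.3.3 (TMM, filterByExpr, quasi-likelihood test, two-sided, group as the only term) over 16515 genes, which held 99.9% of the reads, with Benjamini-Hochberg adjustment over all of them. Each SE was derived from the F statistic, as the size of the log2 fold change divided by sqrt(F). Log2 CPM for likeness used a prior count of 2. DESeq2 1.42.0, limma 3.58.1 and further settings served as alternatives. The scripts were tested on simulated counts. Identifiers were matched without version to GENCODE 29 (28786 of 29710), and promoters came from RefSeq (GRCh38.p14). The planned comparison of protein sequences was not run, and shared transcript stretches of 50 bases were counted instead.

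No 2 replicates agreed within sampling noise (chi-square divided by its degrees of freedom, 4.78 to 16.7), so all were kept apart. The members, lists and tests were chosen with earlier results of these data known. Named genes were the 9 members and SRPK2, up to 4 called genes per list by absolute change or the 2 most abundant where none was called, neighbours within 10 kb, and the 3 genes most like MX1, RSAD2, IFITM3 and BST2. Each edgeR p-value sets a difference between the groups against the spread between these replicates, estimated with information shared among genes. Some genes so named are not reported here.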

Additional observations from a re-analysis of the deposited data

How the results depend on the processing

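Over 18 alternatives the members' median log2 fold change stayed between 0.16 and 0.30. The count of 2 members called became 4 with libraries scaled by size alone or with no filter on low counts, and 0 for limma on log2(FPKM + 1) with no filter, where MX1 and RSAD2 had 0.36 and 0.45. When 1 library was left out it ranged from 1 (RSAD2 missed without control replicate 1) to 4 (without OE replicate 2). The count of 75 genes called became 997 with no filter, 132 with DESeq2, 18 for limma on log2(FPKM + 1) with no filter, 119 with the gene length correction, and ranged from 27 to 1403 when 1 library was left out (27 without control replicate 1, 1403 without OE replicate 2). Same-numbered libraries deviated together in part (correlations of 0.08, 0.23 and 0.17), and each correlated best with its own number. Between unlike numbers the correlations ran from -0.17 to -5.48e-05. Each deviation was taken from the mean of its own group. This by itself pushes unlike numbers below 0 when like numbers are above 0, so the unlike values add no separate information. The labels do not say that libraries of 1 number were handled together, and the number was not taken as a pairing in the main fit. Whether the numbers mark a batch was not tested. With the replicate block 3899 genes (23.6%) and 5 members were called, with MX2, CMPK2 and ISG20 (0.23, edgeR adjusted p = 0.00201) added, and with the gene length correction and the replicate block 3073 genes (19.1%) and 7 members, with IFITM1 (0.24, edgeR adjusted p = 0.0165) and IFITM3 (0.09, edgeR adjusted p = 0.0151) added as well. Of the other antiviral effectors 19 and 20 rose in these fits. Values near 0 turned sign. IFITM2 was 0.01 with the gene length correction, with and without the block (0.0078 and 0.0071), and IFITM3 was -0.0059 without OE replicate 1 and up to 0.11 without OE replicate 3. BST2 was 0.0119 with size alone, 0.0139, 0.0140 and 0.0139 for limma on FPKM plus 1, plus 0.1 and plus 1 without a filter, 0.0651 and 0.0658 with the gene length correction without and with the block, 0.0433 without control replicate 2 and 0.0231 without OE replicate 3, and when 1 library was left out it ranged from -0.093 to 0.043. With 1 mismatch allowed all 7 genes with a promoter, and 37.7% of all genes of the set, held the ISRE core. The cause of these changes was not tested. Depth limits CMPK2 and MX2 most among the members.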
